A study of Homo sapiens
Mus musculus with 3 samples.

Results

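The genes described here are the human T-cell coreceptors and costimulatory receptors CD4 (ENSG00000010610), CD8A (ENSG00000153563), CD8B (ENSG00000172116), CD28 (ENSG00000178562), CD2 (ENSG00000116824), CD5 (ENSG00000110448) and CD7 (ENSG00000173762). They are 7 of the 32738 human genes in the read tables and were picked out by identifier. Their names come from the list that chose them, since the tables give identifiers only. The libraries were made on the ICELL8 cx, which dispenses cells into nanowells, selects wells with a single imaged cell and adds a well barcode to the 3' ends of transcripts. Each library held an equal mixture of 4 lymphocyte lines, namely Jurkat (human, described by the study as CD4+ T cells), TALL-104 (human, described as CD8+ T cells, small and cultured with IL-2), EL4 (mouse T cells) and IVA12 (mouse B cells). The official 3'DE kit was used for 2 libraries and the modified 3'DE-UMI protocol for 1 library, in which cDNA was cleaned and treated with an exonuclease before amplification so that unique molecular identifiers (UMIs) could be counted. The labels give all libraries the same lines, with no treatment that differs between them. The study's sample list puts 3'DE library 2 and 3'DE-UMI on one prepared mixture and 3'DE library 1 on another.

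CD4 and CD8 are the coreceptors of the T-cell receptor. CD4 binds class II and CD8 binds class I major histocompatibility molecules, and both bring the kinase LCK to the receptor. CD8 is a dimer at the cell surface, of 2 alpha chains (CD8A) or of an alpha and a beta chain (CD8B). CD28 gives the costimulatory signal on binding CD80 or CD86. CD2 binds CD58 and strengthens adhesion and signalling, CD5 dampens T-cell receptor signalling, and CD7 is an early marker of the T lineage that many T-cell leukemias keep.

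A well was called human when it held at least 1000 reads and 200 genes and under 10% mouse reads. The libraries gave 533, 484 and 557 human wells (3'DE library 1, 3'DE library 2 and 3'DE-UMI, in this order throughout). Clustering these wells without the 7 genes gave human cluster 1, with 406, 448 and 527 wells, and human cluster 2, with 127, 36 and 30 wells. The clusters could not be matched to Jurkat or TALL-104, because the tables pair no identifier with a symbol and the marker genes of the lines could not be looked up. Cluster 2 was shallower: its median well held 4507, 9509 and 4880 reads, against 26535.5, 38468.5 and 17834 in cluster 1. Summed over wells, cluster 2 had 637255, 1396420 and 196610 human reads and cluster 1 had 10173399, 46479670 and 15187687. The libraries also shared well barcodes, 529 between the 3'DE libraries, 539 between 3'DE library 1 and 3'DE-UMI, and 469 between 3'DE library 2 and 3'DE-UMI. A barcode that was cluster 1 in the first library of a pair was cluster 1 in the second for 73.3%, 79.1% and 63.3% of barcodes called single-species in both, against 24.6%, 25.5% and 21.7% where the first was mouse. Of the human wells, 239, 262 and 284 had such a shared barcode. Why the calls of shared barcodes went together was not tested, and values without these wells are given beside the results.

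The level of a gene is given as CPM, the reads of the gene per 1000000 human reads, summed over the wells of a class, with an exact 95% Poisson interval. Detection is the share of wells with at least 1 read, with an exact 95% binomial interval. Intervals and limits cover counting error only, since reads are PCR copies. A CPM rises both with more detecting wells and with more reads in each, so both are given. Mouse wells serve as the background of stray human RNA. Their median depth was 23713.5, 31942 and 31408.5 reads, of which a median of 75.5, 522 and 96.5 were human.

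The surface receptors CD2 and CD28 were the members read in most wells. Of their reads in all wells, cluster 1 held 86.7%, 93.6% and 97.0% for CD2 and 78.6%, 96.4% and 99.0% for CD28, near its 81.1%, 90.8% and 95.3% of all human reads, while cluster 2 held 0.295%, 0% and 1.05% for CD2 and 0.122%, 0% and 0% for CD28, against 5.08%, 2.73% and 1.23% of all human reads. In human cluster 1, CD2 had 260 CPM in 3'DE library 1, 176 CPM in 3'DE library 2 and 226 CPM in the 3'DE-UMI library. These levels rested on 2649, 8197 and 3432 reads. A CD2 read was present in 73.2% (95% interval 68.6 to 77.4), 56.9% (52.2 to 61.6) and 31.3% (27.4 to 35.5) of cluster 1 wells. CD2 was thus read in a majority of wells in both 3'DE libraries and in under 1 well in 3 of the 3'DE-UMI library.

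In cluster 2, CD2 was found in 3 of 127 wells with 9 reads, in 0 of 36 wells, and in 1 of 30 wells with 37 reads. Those counts are 14.1 CPM, 0 CPM, for which a count of 0 allows up to 2.15 CPM, and 188 CPM. The ratio of cluster 1 to cluster 2 was 18.4 (interval 9.70 to 40.4) in 3'DE library 1, at least 82.1 in 3'DE library 2 and 1.201 (0.869 to 1.71) in 3'DE-UMI. The last value rested on a single well whose 37 reads were 1 UMI. That well carried a shared barcode, and without shared barcodes CD2 had 0 reads in the 16 cluster 2 wells left in that library. The shares in cluster 2 (2.36%, 0% and 3.33%) did not differ from those in mouse wells (0.976%, 4.66% and 1.71%) beyond their intervals and are not read as expression.

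CD28 had 63.3, 58.0 and 122 CPM in cluster 1, from 644, 2696 and 1855 reads. It was read in 36.0% (31.3 to 40.8), 31.5% (27.2 to 36.0) and 19.7% (16.4 to 23.4) of cluster 1 wells. In cluster 2, CD28 had 1 read in 1 well of 3'DE library 1 and 0 reads in the other libraries. Cluster 1 was 40.3 times cluster 2 (7.21 to 1596) in 3'DE library 1, at least 27.0 times in 3'DE library 2 and at least 8.005 times in the 3'DE-UMI library. By summed reads, which include PCR copies, CD28 was thus higher in cluster 1 in each of the 3 libraries. By UMIs the 3'DE-UMI library could not show a CD28 difference, because cluster 2 held too few molecules. CD28 had 0 of the 14120 human UMIs of cluster 2, for which the interval reached 261 CPM. The level in cluster 1 was 112 CPM by UMIs. For CD2, the reads of the 3'DE-UMI library did not show a difference beyond their interval. Mouse wells held a CD28 read in 0.651%, 3.62% and 0.714% of wells, below the cluster 1 shares in every library.

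**Figure D1:**
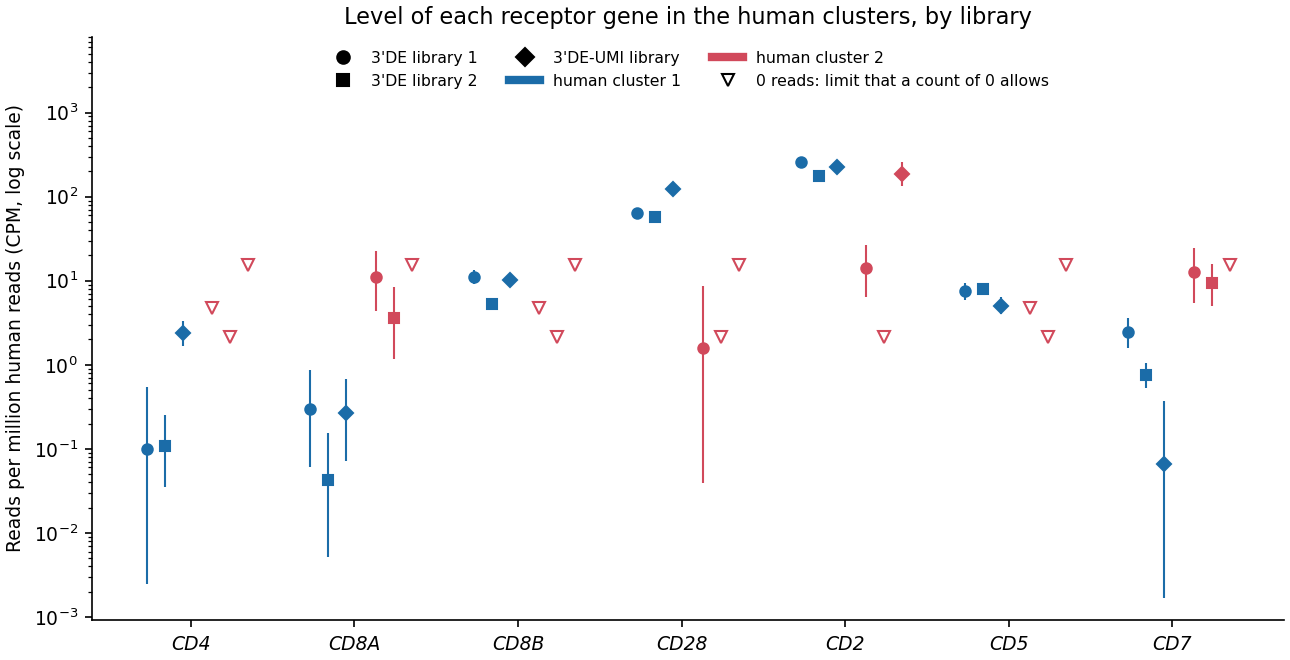
CPM of each receptor gene on a log axis, by library (circle, square and diamond) and human cluster (blue for cluster 1, red for cluster 2), with exact 95% Poisson intervals; open triangles mark the level that a count of 0 allows. CD2 and CD28 in cluster 1 lie between 58.0 and 260 CPM, and CD4, CD8B and CD5 have no read in cluster 2.

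CD5 and CD8B were read in few wells of cluster 1 and in none of cluster 2. CD5 had 7.47, 8.05 and 5.07 CPM in cluster 1, in 28, 40 and 8 wells. Its share of wells was 6.90%, 8.93% and 1.52%, against 0%, 1.29% and 0.143% of mouse wells. In cluster 2 a count of 0 allows up to 4.71, 2.15 and 15.3 CPM by reads. The level in cluster 1 was 1.59 and 3.75 times that limit in the 3'DE libraries. In 3'DE library 1 the exact interval of cluster 1 began at 5.89 CPM and that of cluster 2 ended at 5.79 CPM. In 3'DE library 2 a single well held 130 of the 374 cluster 1 reads (34.8%). A difference was not detectable at the depth of the 3'DE-UMI library.

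CD8B had 11.1, 5.31 and 10.2 CPM in cluster 1, in 22, 29 and 13 wells, and 0 reads in cluster 2. Cluster 1 was at least 2.36 and 2.47 times cluster 2 in the 3'DE libraries, with no bound from the 3'DE-UMI library. The CD8B reads were concentrated: a single well held 20.4%, 17.4% and 21.3% of the cluster 1 reads. Mouse wells of 3'DE library 2 held 56 CD8B reads in 5 wells, which is 63.5 CPM of their few human reads, but 52 of the 56 lay in a single well. The near-identical gene CD8B2 could share reads with CD8B, and how the counting software treated such reads is not given in the sources used here, so the CD8B values are uncertain. Without shared barcodes CD8B in the 3'DE-UMI library fell from 155 to 14 reads, or 1.77 CPM, while the 3'DE libraries gave 14.3 and 5.42 CPM.

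The coreceptors CD4 and CD8A, which define the labelled types of the human lines, were at or near the limit of detection. CD4 had 1, 5 and 36 reads, all of them in cluster 1, in 1, 4 and 4 wells. Its level was 0.0983 and 0.108 CPM in the 3'DE libraries and 2.37 CPM in the 3'DE-UMI library. The 36 reads of the 3'DE-UMI library lay in wells with 3, 6, 12 and 15 reads and corresponded to 3 UMIs, the well with 6 reads having none. No CD4 read was found in mouse, mixed-species or cluster 2 wells of any library. For cluster 2 that allows up to 4.71, 2.15 and 15.3 CPM by reads, which is above the level in cluster 1. No difference in CD4 between clusters was thus detectable at this depth.

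CD8A had 3, 2 and 4 reads in cluster 1, in 2, 2 and 1 wells, and 7, 5 and 0 reads in cluster 2, in 3, 1 and 0 wells. The levels were 0.295, 0.0430 and 0.263 CPM in cluster 1 and 10.98, 3.58 and 0 CPM in cluster 2. There a count of 0 allows up to 15.3 CPM by reads. As a mean over wells of the CPM of each well, which weights wells equally, the 3'DE libraries gave 0.220 and 0.242 CPM in cluster 1 and 7.93 and 32.9 CPM in cluster 2. Cluster 2 was 37.3 times cluster 1 (8.50 to 223) in 3'DE library 1 and 83.2 times (13.6 to 874) in 3'DE library 2, from summed reads. The cluster 1 shares of wells (0.493%, 0.446% and 0.190%) had intervals that overlapped those of mouse wells (0%, 0% and 0.143%). The cluster 2 shares of the 3'DE libraries were 2.36% (0.490 to 6.75) and 2.78% (0.0703 to 14.5). Their intervals overlapped those of cluster 1 (0.0597 to 1.77 and 0.0541 to 1.60). A single cluster 2 well held 5 of the 7 reads in 3'DE library 1 and all 5 in 3'DE library 2. By summed reads only, CD8A thus differed between clusters in the opposite direction to CD2 and CD28 with the official kit, on 4 cluster 2 wells in all. Of those 4 wells, 2 carried a barcode that no other library held. Without shared barcodes CD8A had 1 and 5 reads in cluster 2 and 0 and 1 reads in cluster 1 of the 3'DE libraries. CD8A and CD8B, the chains of one dimer, were not read in the same cluster 1 well of a 3'DE library and were read together in 1 well of the 3'DE-UMI library. With CD8A in only 2, 2 and 1 cluster 1 wells, these counts cannot show whether both chains occur together.

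CD7 was read in 17, 19 and 1 wells of cluster 1 and in 6, 3 and 0 wells of cluster 2. Its levels were 2.46, 0.753 and 0.0658 CPM in cluster 1 and 12.6, 9.31 and 0 CPM in cluster 2. Cluster 2 was 5.11 times cluster 1 (1.99 to 11.7) in 3'DE library 1 and 12.4 times (6.002 to 24.0) in 3'DE library 2. The shares of wells with a CD7 read overlapped between the clusters, at 4.19% and 4.24% in cluster 1 and 4.72% (1.75 to 9.999) and 8.33% (1.75 to 22.5) in cluster 2. In the 3'DE-UMI library the cluster 1 share of 0.190% was near that of mouse wells (0.143%). CD7 and CD8A were therefore the members whose CPM was higher in cluster 2 than in cluster 1 of both 3'DE libraries. In 3'DE library 2, mouse wells held 10.2 CPM of CD7 among their human reads, close to the level in cluster 2. Without shared barcodes CD7 had 19.0 and 8.16 CPM in cluster 2 and 2.51 and 0.451 CPM in cluster 1 of the 3'DE libraries.

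**Figure D2:**
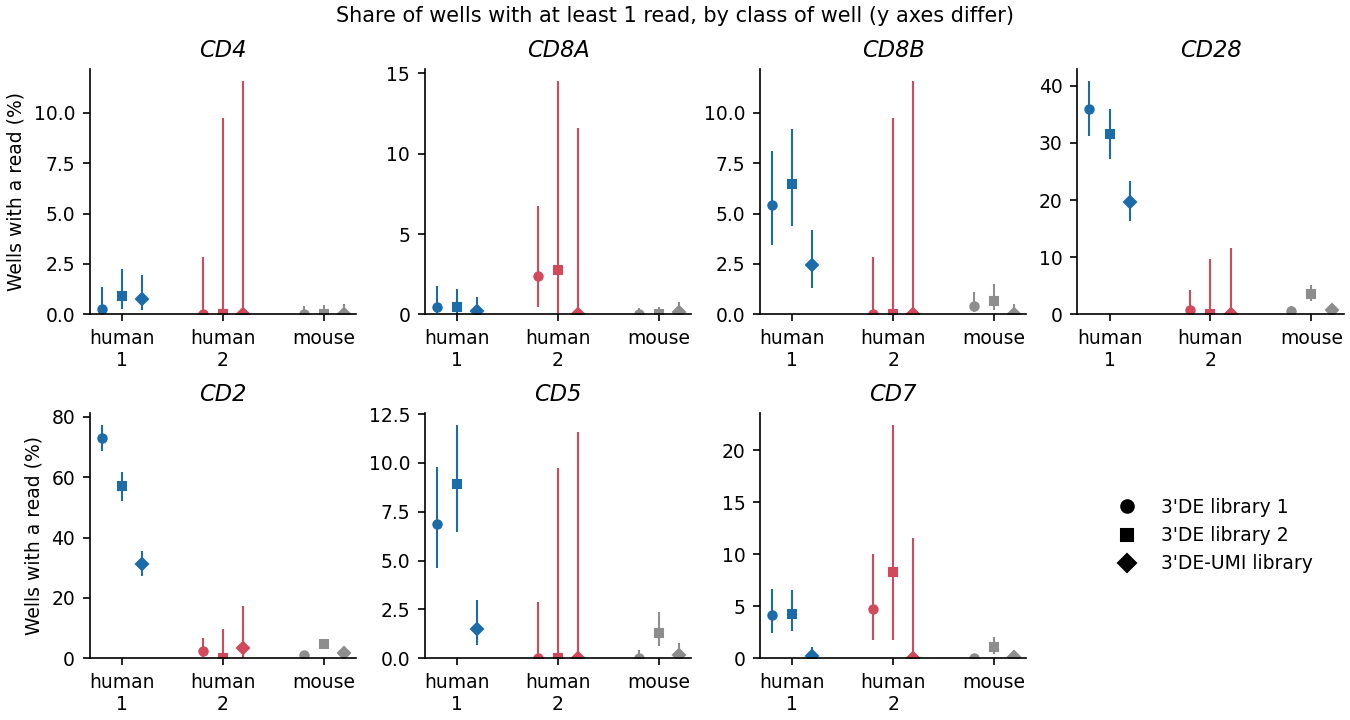
Share of wells with at least 1 read (percent, exact 95% binomial intervals) for each receptor gene in human cluster 1, human cluster 2 and mouse wells, with 1 symbol per library and a y axis per panel that starts at 0. CD2 reaches 73.2% and CD28 36.0% of cluster 1 wells, and the intervals of cluster 2, with 127, 36 and 30 wells, are wide.

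Reads summed per library and cluster were compared between the clusters in edgeR's quasi-likelihood test, with the library as a block, over the 10749 human genes that passed the filter on low counts. Of these, 375 passed an adjusted p of 0.05 (3.49%), and the median log2 difference of all genes was 1.85 in favour of cluster 1. No member passed (0 of 6 tested), with 4 of 6 at an unadjusted p under 0.05, against 17.6% of all genes tested. By DESeq2, 3 of 6 members passed, against 1403 genes in all (13.1%). CD28 was 7.44 higher in cluster 1 on the log2 scale (SE 2.41, adjusted p = 0.0548 in edgeR) and CD2 4.32 higher (SE 1.496, adjusted p = 0.0863 in edgeR). For CD8B the estimate was 9.58 (SE 4.47, adjusted p = 0.255 in edgeR) and for CD5 9.51 (SE 4.54, adjusted p = 0.263 in edgeR). These estimates of genes with 0 reads in cluster 2 depend on the prior count and are no measure of size. CD8A, at -4.56 (SE 2.396, adjusted p = 0.289 in edgeR), and CD7, at -2.77 (SE 2.38, adjusted p = 0.523 in edgeR), had the opposite sign. CD4 had too few reads to be tested.

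The call for CD2 turned on the 3'DE-UMI library, on DESeq2 and on the mixed-species limit. With human wells limited to under 5% mouse reads, the log2 difference of CD2 was 6.997 (adjusted p = 0.0138 in edgeR). Without the 3'DE-UMI library the log2 difference of CD2 was 5.97 (adjusted p = 0.00223 in edgeR), and with UMIs in place of that library's reads it was 5.28 (adjusted p = 0.000160 in edgeR). CD28 passed with UMIs (6.85, adjusted p = 0.00274 in edgeR) and by DESeq2 (6.93, adjusted p = 0.00108 in DESeq2). Without shared barcodes CD2 was at 7.35 (adjusted p = 0.0680) and CD28 at 6.85 (adjusted p = 0.293, both in edgeR). Changes of 4 on the log2 scale in simulated sums were recovered for 5% of changed genes, so a missed threshold in this design says little about a member.

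The share of each member's reads by class of well was set beside that of all human genes. Over the 3 libraries, cluster 1 held 90.2% of all human reads and cluster 2 held 2.80%. Cluster 1 held 100% of the 42 CD4 reads, 94.6% of the 5490 CD28 reads, 93.0% of the 15351 CD2 reads, 90.2% of the 584 CD5 reads and 80.2% of the 642 CD8B reads. CD7 had 52.1% of its 117 reads in cluster 1 and 17.9% in cluster 2. CD8A stood apart, with 8.74% of its 103 reads in cluster 1, 11.7% in cluster 2 and 78.6% in mixed-species wells. Per library, mixed-species wells held 65.5% of 29, 89.9% of 69 and 0% of 5 CD8A reads, and cluster 1 held 80% of the 5 reads of the 3'DE-UMI library. Of the CD8A reads in mixed-species wells, 60 lay in a single well of 3'DE library 2, with 34324 reads of which 20.6% were mouse.

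**Figure D3:**
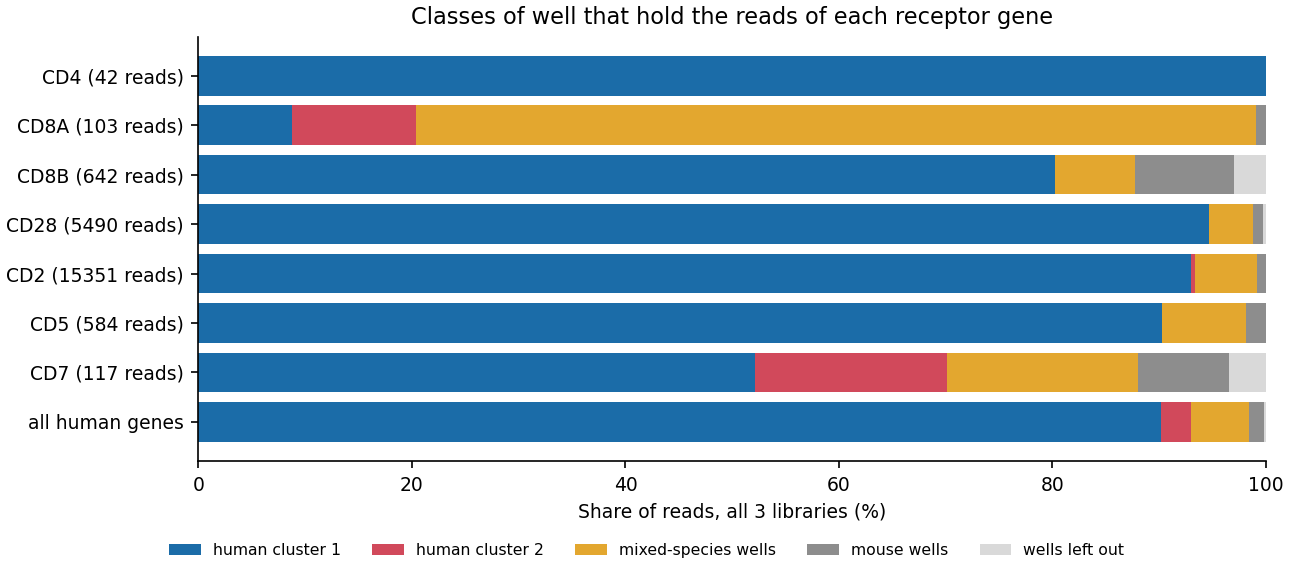
Share of each gene's reads, summed over the 3 libraries, by class of well, with all human genes in the lowest bar. CD8A has 78.6% of its reads in mixed-species wells, while CD2 and CD28 have shares in cluster 1 near that of all human genes (93.0% and 94.6% against 90.2%).

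Detection of CD2 and CD28 within cluster 1 rose with the depth of the well. In wells of 3'DE library 1 with 1000 to 10000 human reads, CD2 was read in 39.6% (25.8 to 54.7), and in those with 40000 to 80000 in 85.0% (70.2 to 94.3). In 3'DE library 2 the corresponding shares were 22.5% and 62.2%, with 80.1% above 80000 reads. In the 3'DE-UMI library CD2 went from 8.90% to 60.3%, and to 75.0% above 80000 reads. CD28 went from 18.8% to 57.5% in 3'DE library 1. It went from 10% to 31.1% in 3'DE library 2 and from 13.0% to 30.9% in the 3'DE-UMI library, with 52.5% and 50.0% above 80000 reads. Even the deepest wells of cluster 1 thus left a share without CD28, while CD5 reached 15.6% above 80000 reads in 3'DE library 2.

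**Figure D4:**
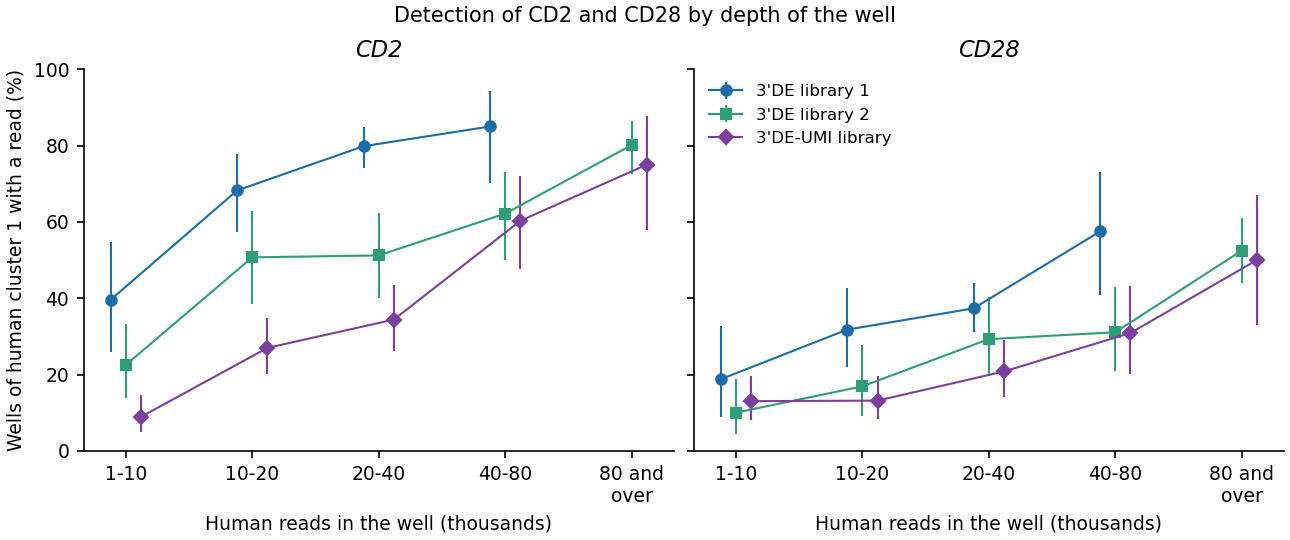
Share of cluster 1 wells with a read of CD2 (left) or CD28 (right) by the number of human reads in the well, for each library, with exact 95% binomial intervals. CD2 rises to 85.0%, 80.1% and 75.0% in the deepest bins of the libraries and CD28 to 57.5%, 52.5% and 50.0%.

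Since cluster 2 was shallow, shares were also computed for wells thinned to 5000 reads, leaving out shallower wells (15, 27 and 38 of cluster 1 and 77, 10 and 16 of cluster 2). At that depth CD2 would be read in 52.8%, 34.5% and 24.9% of cluster 1 wells, and in 1.29%, 0% and 7.14% of the 50, 26 and 14 cluster 2 wells. For CD28 the shares were 18.5%, 15.3% and 15.4% in cluster 1 and 0% in cluster 2 of every library. A share of 0 in so few wells allows up to 6%, 11.5% and 21.4%. The CD28 shares of cluster 1 lay above these limits in 3'DE library 1 and 3'DE library 2 and below it in the 3'DE-UMI library.

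Members were read together mainly in cluster 1. At least 1 of the 7 genes was read in 82.02%, 70.5% and 42.5% of cluster 1 wells and in 10.2%, 11.1% and 3.33% of cluster 2 wells. In cluster 1, 147, 139 and 60 wells held 2 or more members and 27, 33 and 12 held 3 or more. No cluster 2 well held more than 1 member, but only 13, 4 and 1 cluster 2 wells held any. Cluster 2 wells were also shallower, and these counts and shares were not matched for depth. CD2 and CD28 were read together in 118, 100 and 54 cluster 1 wells. CD2 was present in 80.8%, 70.9% and 51.9% of the wells with CD28, above its share of all cluster 1 wells (73.2%, 56.9% and 31.3%). Deep wells hold more of both genes, and the part of depth in this was not tested. CD4 and CD8B were read in the same cluster 1 well once, in the 3'DE-UMI library, and CD4 and CD8A never were in any cluster 1 well of the 3 libraries. CD4 was read in only 1, 4 and 4 cluster 1 wells and CD8A in 2, 2 and 1. These counts are too low to show whether the 2 genes avoid each other.

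The protocols were compared in human cluster 1. The 3'DE-UMI library was a single library and its cluster 1 wells were the shallowest, so protocol, library and depth cannot be told apart in the unthinned shares. CD28 had a higher CPM in the 3'DE-UMI library, 122 against 60.7 ± 3.75 (SD, n = 2), and was read in 19.7% of wells against 33.7% ± 3.17 (SD, n = 2). At equal depth the CD28 shares did not keep that order: thinned to 2000 reads they were 9.69% and 8.53% in the 3'DE libraries and 10.6% in 3'DE-UMI, and thinned to 5000 reads 18.5%, 15.3% and 15.4%. CD2 differed little in CPM, 226 against 218 ± 59.4 (SD, n = 2), less than the SD of the official kit, and was read in 31.3% of wells against 65.0% ± 11.5 (SD, n = 2). Its shares in wells thinned to 2000 reads were 31.7%, 20.8% and 17.1%, lowest in 3'DE-UMI as before thinning. CD5 was read in 1.52% against 7.91% ± 1.44, CD7 in 0.190% against 4.21% ± 0.0381 and CD8B in 2.47% against 5.95% ± 0.746 of wells (SD, n = 2 each). Of these 5 members, CD2, CD5, CD7 and CD8B had their lowest share in 3'DE-UMI both unthinned and at 2000 and 5000 reads, and CD28 only unthinned. For CD5, CD7 and CD8B the thinned shares were at most 2.88%.

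Wells that detected a member held more reads of it in 3'DE-UMI by the median, for every member but CD7. The median detecting well held 15 CD28 reads, against 3 and 6 in the 3'DE libraries, 13 CD2 reads against 7 and 10, and 10 CD8B reads against 3 and 3. For CD5 it held 8.5 reads against 2 and 2.5, and for CD7 1 read in each library. The medians of CD4 (9 against 1 and 1) and CD8A (4 against 1.5 and 1) rested on few wells. The means were 17.8 CD28 reads against 4.41 and 19.1, and 20.8 CD2 reads against 8.92 and 32.1. In 3'DE library 2 the highest single wells held 467 CD28 reads (17.3% of that library's cluster 1 total) and 643 CD2 reads (7.84%). The share of CD28 in the summed reads of CD2 and CD28 was 19.6% (18.2 to 21.0), 24.7% (23.9 to 25.6) and 35.1% (33.8 to 36.4). It was highest in 3'DE-UMI, and both libraries of the official kit also differed beyond counting error. Without shared barcodes CD28 had 60.4, 50.7 and 93.3 CPM and CD2 257, 185 and 218 CPM in cluster 1.

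**Figure D5:**
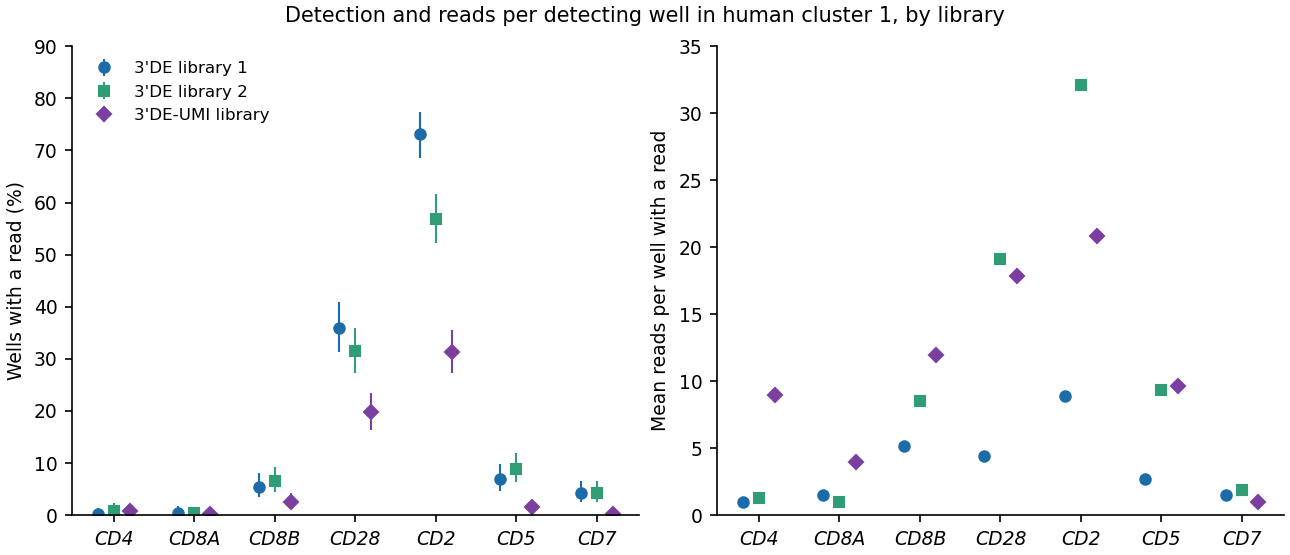
Share of cluster 1 wells with a read (left, percent, exact 95% binomial intervals) and mean reads per well with a read (right) for each gene, with 1 symbol per library. Wells are not thinned here. The shares of CD2, CD28, CD5, CD7 and CD8B are lowest in 3'DE-UMI, whose wells are the shallowest (for CD28 not so in wells thinned to 2000 reads), and CD2 has 20.8 reads per detecting well there against 8.92 and 32.1.

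The UMIs of the 3'DE-UMI library gave the number of molecules behind these reads. In cluster 1, CD2 had 249 UMIs in 163 wells and CD28 had 123 UMIs in 96 wells, or 227 and 112 CPM of 1096108 human UMIs. CD8B had 13 UMIs, CD5 8, CD4 3, CD8A 1 and CD7 1, none of them with more than 1 UMI in a well. Most detecting wells held a single molecule, 115 of 163 for CD2 and 76 of 96 for CD28, and the highest were 10 and 4 UMIs. There were 13.8 reads per UMI for CD2, 15.1 for CD28 and 13.9 over all human genes. Reads and UMIs were counted with different software, so these ratios are not exact copies per molecule.

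In edgeR's quasi-likelihood test, 1707 of 13736 genes (12.4%) differed between the protocols in cluster 1, and the median log2 difference of all genes was -0.11. No member was called (0 of 6 tested), with 2 of 6 at an unadjusted p under 0.05, against 28.6% of all genes, and 1 of 6 passing in DESeq2, against 15.5%. On the log2 scale CD28 was at 1.16 in favour of 3'DE-UMI (SE 0.38, adjusted p = 0.0644 in edgeR), or 1.204 with an adjusted p of 0.0334 in DESeq2. CD4 was at 4.57 (SE 2.03, adjusted p = 0.159 in edgeR), CD7 at -4.32 (SE 2.56, adjusted p = 0.289 in edgeR; -0.64 with UMI counts) and CD2 at 0.20 (SE 0.35, adjusted p = 0.740 in edgeR). CD8B, at 0.49, turned to -2.32 without shared barcodes, and CD5 was at -0.47. CD28 was at 0.86 (adjusted p = 0.280 in edgeR) without shared barcodes. The fit had 1 residual degree of freedom and took the lone library of the modified protocol to vary like the others. With UMI counts, the UMIs of that library were set against the reads of the 3'DE libraries.

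The difference between the clusters was also compared between the protocols. Of 12526 genes, 56 passed (0.447%) in edgeR and no member did (0 of 7), with 1 of 7 at an unadjusted p under 0.05, against 5.44% of all genes, and 0 of 7 passing in DESeq2, where 1 gene of 12526 passed. That member was CD2, whose cluster difference in 3'DE-UMI less that in 3'DE was -5.33 on the log2 scale (SE 1.94, adjusted p = 0.384 in edgeR). The value came from the single cluster 2 well with 37 CD2 reads, and without shared barcodes it was 6.77 (adjusted p = 1 in edgeR).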

How the data were processed

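The deposited read counts per gene and well had been made by the authors with mappa v0.9 and STAR 2.7.0b on a combined hg19 (Ensembl 82) and mm10 (Ensembl 84) reference, without collapsing UMIs. The UMI counts of the 3'DE-UMI library came from Drop-seq_Tools v2.3.0 and STAR 2.4.2a. Whether the deposited tables held reads downsampled for the study was not known, and a lower depth lowers the share of wells with a read. The libraries totalled 35581264, 109702878 and 44883618 reads.

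After the filters, 1635, 1432 and 1293 wells were kept, of which 180, 175 and 36 were mixed-species and in no comparison. No doublet caller was run. Human wells were clustered with scanpy 1.11.5 (1000 variable genes scaled within library, 20 components, 15 neighbours, Leiden at 0.1) on random parts of the genes. Genes were tested on the clusters that did not use them, and the 7 members entered neither clustering. Both clusterings gave 1566 of 1574 wells the same cluster.

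Sums were fitted in edgeR 4.0.16 (filterByExpr, TMM, quasi-likelihood F-test, two-sided, Benjamini-Hochberg over all genes tested) and DESeq2 1.42.0, with the library as the replicate. The labels do not give separate cultures, so p-values measure the spread between these libraries. In simulated sums with 200 changed genes, a log2 change of 4 was recovered for 5% between clusters (10008 genes), 63% between protocols (12949 genes) and 0% in the interaction (11493 genes). Limits for a count of 0 used 3 counts.

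The members and lists were chosen with earlier results of these data known, and all 7 members were named. Lists of partner, ligand and CD3 genes, line markers, the genes nearest in pattern and a mitochondrial filter were not run, because no table used here pairs these identifiers with symbols.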

Additional observations from a re-analysis of the deposited data

Results flagged for a closer look

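Signals of the members were also present in wells that the comparisons did not use. In mixed-species wells, CD8A had 25.9 CPM of human reads in 3'DE library 2 (62 reads, 60 of them in 1 well), above both human clusters of that library in summed reads (3.58 CPM in cluster 2, but 32.9 CPM there as a mean over wells). CD8B had 22.8 CPM in the mixed-species wells of 3'DE library 1 (37 reads in 5 wells) and 31.4 CPM in those of the 3'DE-UMI library (10 reads in 1 well). CD28 had 102 CPM in the mixed-species wells of 3'DE library 1, where it was read in 33 of 180 wells. CD2 had 205 CPM in those of 3'DE library 2, in 30 of 175 wells, and CD5 had 18.0 CPM there, in 4 wells. Each mixed-species well was also correlated with the mean profile of each human cluster of its library. The profiles were on a log scale, over a random part of the human genes without the members. By this measure 64 of 180, 26 of 175 and 13 of 36 mixed-species wells were nearer to human cluster 2 than to cluster 1. The order is 3'DE library 1, 3'DE library 2 and 3'DE-UMI.

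The UMI table also held barcodes that the read table of the same library lacked. Under these 1543 barcodes lay 25843 human UMIs, of which 7 were CD2, each in a barcode of its own, 3 were CD28 and 1 was CD8B.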

How the results depend on the processing

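Between the clusters, the number of genes called was 375 and became 1403 with DESeq2, 959 with UMI counts, 234 in wells of at least 5000 reads, 114 without shared barcodes (chosen after the data were seen) and 1158 without the library block. Leaving out 1 library gave 27 (without 3'DE library 1) to 454 genes, and 212 without 3'DE library 2. Members past the threshold in an alternative were CD8A with DESeq2 (-4.82, adjusted p = 0.0421), CD28 with DESeq2 (6.93), UMI counts (6.85), no minimum of genes (7.45, adjusted p = 0.0370) and no library block (7.40), CD2 with DESeq2 (4.30, adjusted p = 0.0223), UMI counts (5.28) and a mixed-species limit of 5% (6.997, adjusted p = 0.0138), and, without the block, CD8B (9.79) and CD5 (9.40), where CD28, CD8B and CD5 had an adjusted p of 0.0495. Over the libraries left out, CD2 ranged from 2.56 to 5.97 and CD28 from 6.56 to 13.2, and CD2 passed without the 3'DE-UMI library. The cause of these changes was not tested. The sign of every tested member was the same under all alternatives run for the clusters. The median log2 difference of all genes was 1.71 without TMM and 1.55 with DESeq2.

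Between the protocols, UMI counts gave 733 genes in place of 1707. CD28 passed with DESeq2 (1.204) and with no filter on low counts (1.13, adjusted p = 0.0413). The sign turned for CD8B with a mixed-species limit of 5% (-0.072) and without shared barcodes (-2.32), for CD5 with UMI counts (0.027), and for CD2 without 3'DE library 2, where leaving out either 3'DE library gave -0.049 to 0.46 with no test. In the interaction, 56 genes became 1 with DESeq2, 5 with UMI counts and 35 in wells of at least 5000 reads.

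Of the levels in CPM, 5 of 14 moved beyond their interval with UMI counts, 10 of 42 as a mean over wells and 8 of 42 with a mixed-species limit of 5%. Of the shares of wells, 0 of 14 moved with UMI counts, 2 of 42 with the 5% limit, 13 of 42 when 2 reads were required, 15 of 42 when thinned to 5000 reads and 20 of 42 when thinned to 2000. The protocol difference of CD7 went from -4.32 to -0.64 with UMI counts. That setting replaced reads in the 3'DE-UMI library only, so it set UMIs against the reads of the 3'DE libraries. CD7 in cluster 1 of the 3'DE-UMI library was 1 read of 15187687 (0.0658 CPM) and 1 UMI of 1096108 (0.912 CPM). The change in CD7 thus rested on a single count and on the unit counted. Assignment of wells by marker genes and a mitochondrial filter were not run, as the tables give no symbols. The replicate numbers of the protocols are names in accession order. No paired analysis of the protocols was possible because only 1 pair of libraries shared a prepared mixture, 3'DE library 2 and 3'DE-UMI. Within that pair, with no test, the difference was 1.18 for CD28, 0.46 for CD2, 1.04 for CD8B, -0.56 for CD5, 4.51 for CD4 and -3.34 for CD7. Cluster 2 set the limit of depth: by reads, which are PCR copies, 196610 human reads in the 3'DE-UMI library cannot show a level under 15.3 CPM. By the 14120 human UMIs of these wells the limit was higher, since the exact interval of a count of 0 reached 261 CPM.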
